A study of Mus musculus with 3 samples.

Results

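The 53 genes described here encode the machinery that copies DNA in S phase, from the proteins that license replication origins to those that rebuild chromatin behind the fork. They were chosen by name, and their probes were found through the RefSeq accession that the array files give for each probe. All 53 had a probe on the array, 61 probes in all, among 32524 genes or accessions with a probe. By the rule, a gene entered if at least 1 array showed it well above background: all 53 members met this, and for 52 of them all 3 arrays did. Members fall into 6 groups by role: 11 origin licensing genes, 9 genes of origin firing and the moving fork, 19 DNA synthesis genes, 5 genes of nucleotide supply, 6 chromatin genes and 3 regulators of S-phase entry.

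RNA came from primary mouse embryonic fibroblasts, taken at embryonic day 10.0 from the C57BL/6J strain and carrying the genotype Rb-/-;ATM-/-, so that, by the label, every group, the control included, lacks the retinoblastoma protein gene and the DNA damage kinase gene Atm. One culture carried a vector for a hairpin (shRNA) that targets Dnmt1, the enzyme that copies DNA methylation onto new strands (the Dnmt1 shRNA array). Another carried a vector expressing ATM (called here the array labelled ATM vector), and the control carried an empty vector (the empty-vector array). Each was selected with puromycin at 4 µg/ml for 3 days, grown for 4 more days and measured on 1 Agilent 1-colour array, with 1 array per group and hence no replicate culture, so no p-value or standard error can be given for any difference. The vectors' promoters are not given in the labels, and whether the cultures came from 1 embryo or several is not stated there.

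The DNA replication program runs in a fixed order. In G1 the origin recognition complex, Cdc6 and Cdt1 load the ring-shaped MCM helicase onto DNA, and at S-phase entry kinases recruit Cdc45 and the GINS complex to turn that ring into an active helicase. Many of the genes are transcribed in a burst at the G1/S boundary by E2F factors, which the retinoblastoma protein represses; per the labels, the cells on every array lack that protein.

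Values are log2 processed signals minus the 75th percentile of each array, called normalised levels below; a log2 ratio is the level on one array minus the level on the empty-vector array. Levels of different genes come from different probes and are not set against each other. No member probe was spotted more than once. Over other probes that were, the median SD between repeated spots was 0.047 on the Dnmt1 shRNA array, 0.051 on the array labelled ATM vector and 0.046 on the empty-vector array. The wider spread used below, called the probe SD, is between different probes of 1 gene over the whole array: the pooled SD of log2 ratios was 0.21 over 3456 genes for the Dnmt1 shRNA array and 0.33 over 3351 genes for the array labelled ATM vector. These spreads carry no information on how cultures differ. The Dnmt1 shRNA and empty-vector arrays shared slide 1 and scan 1. Slide 2 and scan 2 held only the array labelled ATM vector, so slide and group cannot be told apart there.

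The single Dnmt1 probe had a signal of 956 on the Dnmt1 shRNA array, 3169 on the array labelled ATM vector and 4908 on the empty-vector array, which left 21.8% of the normalised level with the hairpin. The 1 Atm probe well above background had signals of 366, 409 and 430 in the same order of arrays, and its position relative to the vector's or the deleted sequence was not known, so it checks neither label. Rb1 had signals of 782, 460 and 541 with the same limit. Of 16 fibroblast markers, 16 were well above background on the Dnmt1 shRNA array and 15 on each of the other arrays. Epithelial markers well above background numbered 7, 4 and 4 of 10 on the Dnmt1 shRNA, ATM vector and empty-vector arrays, with summed signals of 6971, 5630 and 5886. Muscle markers numbered 4, 2 and 1 of 7, with summed signals of 3052, 6790 and 2256. Endothelial markers numbered 3 of 7 on each array, neural ones 5, 5 and 6 of 7 and blood ones 2, 2 and 3 of 7. Fibroblast markers measured on both arrays had log2 ratios to the empty-vector array from -1.11 (Fap) to 1.71 (Postn) with the hairpin and from -3.21 (Lum) to 2.91 (Postn) on the array labelled ATM vector. Thy1, a fibroblast marker, had signals of 1218, 44.3 and 31.8 on the Dnmt1 shRNA, ATM vector and empty-vector arrays and was not well above background on the empty-vector array. Fap had signals of 353, 7.3 and 855 and was not well above background on the array labelled ATM vector. Krt18, an epithelial keratin, had signals of 1341, 8.74 and 15.3 and was well above background on the Dnmt1 shRNA array alone, as were Krt8 and Dsp. Other keratins of that list were well above background on all 3 arrays and differed otherwise. Krt14 had signals of 296, 4491 and 78.3 and Krt19 of 4094, 899 and 5351 in the same order. The part of these marker differences in the values below was not tested.

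On the Dnmt1 shRNA array, nearly the whole set was slightly lower than on the empty-vector array. The log2 ratio was below 0 for 51 of 53 members, against 52.0% of all 19359 genes tested, and the median was -0.29 against -0.02 for all genes. No member was 2-fold lower or higher, while 2.23% of all genes were at least 2-fold lower and 7.68% at least 2-fold higher. Only Orc1 and Mcm10 were at least 1.5-fold lower, 2 of 53 members against 4.74% of all genes, and none was at least 1.5-fold higher, against 13.1%. A ratio below minus the probe SD of 0.21 was found for 34 members, against 23.6% of all genes, and none had a ratio above it, against 27.8%. The members formed a narrow distribution with few large differences, and its lower and upper quartiles were -0.40 and -0.16. In a mixed culture, fewer cells in S phase and less of these RNAs per cell cannot be told apart.

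Most members gave bright spots, and bright genes on this pair of arrays leaned the same way. Of 7650 genes that both arrays measured at a mean level over the 75th percentile, 66.4% had a log2 ratio below 0 and the median was -0.09. The 46 members in that range had a median of -0.29, and 45 of them were below 0. Large differences were few among bright genes too. At least 2-fold lower were 0.13% of the 7650 and at least 2-fold higher 0.95%. At least 1.5-fold lower were 1.80% of them, against 1 of the 46 members (2.17%), and at least 1.5-fold higher 2.75%, against 0. Cyclic loess, which removes a trend with brightness, brought the members' median to -0.21 and left 46 of 53 below 0, with a median of 0.02 over all genes. Orc6, Mcm6, Gins3, Rpa1, Rrm1 and Slbp, which lay within the probe SD of 0, were above 0 under at least 1 of the 9 alternatives, so statements below that a whole role group was below 0 hold for the reported scaling.

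**Figure D1:**
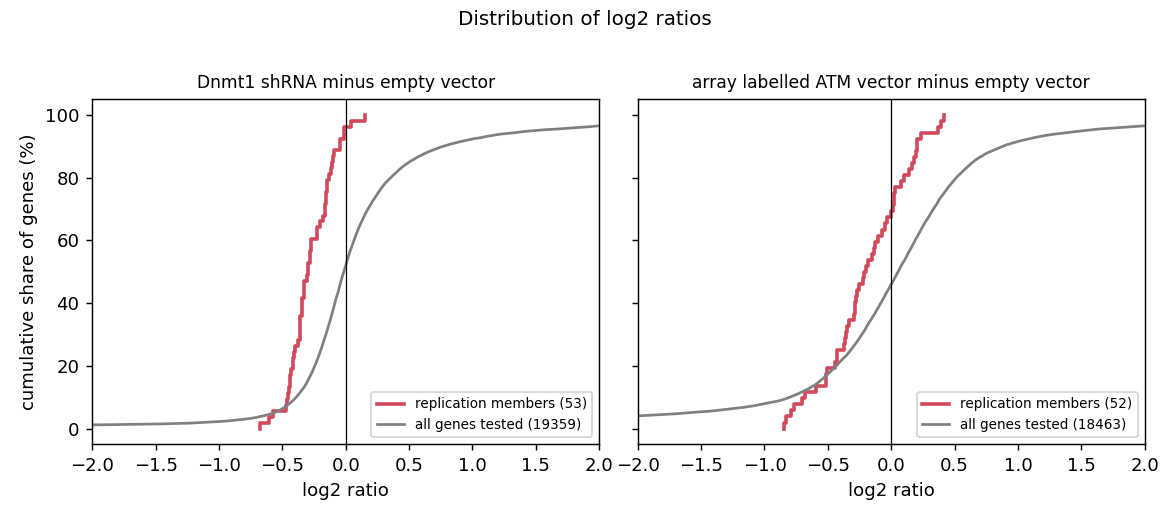
Cumulative share of genes (vertical axis, percent) by log2 ratio (horizontal axis) for the replication members (red) and all genes tested (grey), with the Dnmt1 shRNA comparison at left and the array labelled ATM vector at right, each against the empty-vector array. The red curve at left is steep and lies almost wholly below 0 (51 of 53 members), while at right it is broader, with 36 of 52 members below 0.

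Licensing genes had a median log2 ratio of -0.34 with the hairpin, and all 11 were below 0. Orc1, the largest subunit of the origin recognition complex, had the lowest ratio of the whole set. Its normalised level was -2.60 on the Dnmt1 shRNA array, -2.37 on the array labelled ATM vector and -1.92 on the empty-vector array, so the hairpin array held 62.6% of the empty-vector level (log2 ratio -0.68). The empty-vector array was the highest of the 3. Orc6, another subunit of that complex, differed little between arrays, with levels of 3.67, 3.61 and 3.68 in the same order and a log2 ratio of -0.01 with the hairpin.

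The MCM helicase is a ring of 6 different subunits, Mcm2 to Mcm7, and all 6 had log2 ratios below 0 with the hairpin, though unequal ones. Mcm5 had levels of 3.79 on the Dnmt1 shRNA array, 4.14 on the array labelled ATM vector and 4.36 on the empty-vector array, a log2 ratio of -0.57 with the hairpin. Mcm4, Mcm3 and Mcm2 stood close together at -0.36, -0.34 and -0.29. Mcm7 and Mcm6 were nearest to the control at -0.17 and -0.11, within the probe SD, and Mcm6 was at 0.02 after quantile normalization; the Mcm6 levels were 5.13, 5.10 and 5.24 in that order of arrays. The subunits of 1 ring therefore spanned 0.46 log2 units. Cdc6, the loading factor that brings the helicase to origins, had levels of -0.91, -1.02 and -0.51 on the Dnmt1 shRNA, ATM vector and empty-vector arrays, and its 2 probes gave log2 ratios of -0.52 and -0.29 with the hairpin. Its partner Cdt1, with levels of 3.68, 3.81 and 3.85, stood at -0.18. Geminin (Gmnn), which binds Cdt1 to stop a second round of licensing, had levels of 1.02, 0.69 and 1.40 in that order of arrays and a log2 ratio of -0.38 with the hairpin.

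Genes of origin firing and the fork had a median of -0.33, with 8 of 9 below 0. Mcm10, which activates the helicase, had levels of 1.80 on the Dnmt1 shRNA array, 1.72 on the array labelled ATM vector and 2.40 on the empty-vector array, and its log2 ratio with the hairpin was -0.60 (65.8% of the empty-vector level). Cdc45, a part of the active helicase, had levels of -1.42, -1.24 and -0.95, a log2 ratio of -0.46. Both were highest on the empty-vector array. Within the GINS complex, Gins1 stood at -0.42 and Gins2 at -0.33, but Gins3, with levels of 4.15, 4.53 and 4.16, stood at -0.01. Timeless and Tipin form a pair that stabilises stalled forks: the 2 Timeless probes gave -0.47 and -0.43, and Tipin gave -0.13. Dbf4, the regulatory subunit of the kinase that fires origins, stood at -0.33. Its catalytic partner Cdc7 was the dimmest member: of its 2 probes, 1 was well above background on the Dnmt1 shRNA array alone, with signals of 26.1 there, 28.6 on the array labelled ATM vector and 26.3 on the empty-vector array. No fold is given for it, and it is the 1 member without a value in the other comparison. The next dimmest, Ccne2, had signals of 59.4, 48.1 and 90.2 and was well above background on all 3 arrays.

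DNA synthesis genes had a median of -0.27, and all 19 were below 0. Their ratios ran from -0.44 for Pole2, the accessory subunit of the leading-strand polymerase, to -0.05 for Pola2, the accessory subunit of polymerase alpha. Pole2 had levels of 1.26 on the Dnmt1 shRNA array, 1.52 on the array labelled ATM vector and 1.70 on the empty-vector array. Pola2 had levels of -1.22, -1.33 and -1.18. The polymerase alpha-primase complex, which lays the first primers, was the most even of the multi-subunit machines with 3 or more members: Prim1 and Prim2 stood at -0.16, Pola1 at -0.15 and Pola2 at -0.05. The 5 subunits of the clamp loader RFC, which opens the sliding clamp, all lay below 0, from Rfc4 at -0.43, with levels of 2.14, 2.75 and 2.57, to Rfc1 at -0.16. The clamp itself, Pcna, had levels of 5.27, 5.57 and 5.55, a log2 ratio of -0.28. Of the single-strand binding protein RPA, Rpa2 and Rpa3 stood at -0.40 and -0.33 and Rpa1, with levels of 4.47, 4.77 and 4.56, at -0.09. The Okazaki fragment enzymes Lig1, a ligase, and Fen1, a flap nuclease, stood at -0.35 and -0.27. Among the replicative polymerases Pold1 stood at -0.36, Pold2 at -0.20 and the catalytic subunit Pole at -0.11.

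Nucleotide supply genes had a median of -0.30, with 5 of 5 below 0. Rrm2, the subunit of ribonucleotide reductase made in S phase, had levels of 4.73 on the Dnmt1 shRNA array, 4.59 on the array labelled ATM vector and 5.10 on the empty-vector array (log2 ratio -0.36). Its partner Rrm1 had levels of 3.82, 3.33 and 3.92 (log2 ratio -0.10). Dut, which removes dUTP, had levels of 2.64, 3.00 and 3.00 and a log2 ratio of -0.36: the Dnmt1 shRNA array was the low one and the other 2 did not differ at 2 decimals. Tyms, thymidylate synthase, had levels of -2.02, -2.0 and -1.71 (log2 ratio -0.30). Tk1, thymidine kinase, had levels of 4.27, 4.18 and 4.54 (log2 ratio -0.28). For both thymidine genes the empty-vector array was the highest.

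Chromatin genes had a median of -0.35 with the hairpin, close to the licensing and firing groups, and 6 of 6 were below 0. Hells, a chromatin remodeller needed for DNA methylation, and Cdca7, its partner, had nearly the same ratio at -0.45 and -0.47. After normexp background correction Hells stood at -0.64 and Cdca7 at -0.40. Hells had levels of 0.17 on the Dnmt1 shRNA array, 0.76 on the array labelled ATM vector and 0.61 on the empty-vector array, while Cdca7 had levels of 2.03, 1.66 and 2.50. The histone chaperone CAF-1, which deposits new nucleosomes at the fork, has the subunits Chaf1a, with levels of 1.40, 1.69 and 1.81 (log2 ratio -0.41), and Chaf1b, with levels of 2.71, 3.02 and 3.00 (log2 ratio -0.29). In both, the Dnmt1 shRNA array was the lowest of the 3. Asf1b, a histone chaperone that hands histones to CAF-1, had levels of 2.82, 2.69 and 3.04 (log2 ratio -0.22). Slbp, which binds the stem-loop of histone messages, had levels of 0.84, 0.69 and 0.89 (log2 ratio -0.04).

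The 3 regulators of S-phase entry had the median nearest to 0, -0.15. Ccne1, a cyclin that drives the G1/S kinase, had levels of 0.62 on the Dnmt1 shRNA array, -0.22 on the array labelled ATM vector and 0.57 on the empty-vector array, and both of its probes gave 0.05 with the hairpin. It was the only member measured on both arrays with a ratio above 0. Ccne1 was below 0 when scaled on the median level of the housekeeping genes. On every array that level was that of a single gene, B2m, which stood at 0.18, while the median ratio of the list was -0.07. Ccne2, the related cyclin, had levels of -5.12, -5.45 and -4.68 (log2 ratio -0.44, but -0.16 after normexp background correction and -0.71 after quantile normalization). Cdc25a, the phosphatase that activates the kinase, had levels of 1.42, 1.15 and 1.57 (log2 ratio -0.15).

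**Figure D2:**
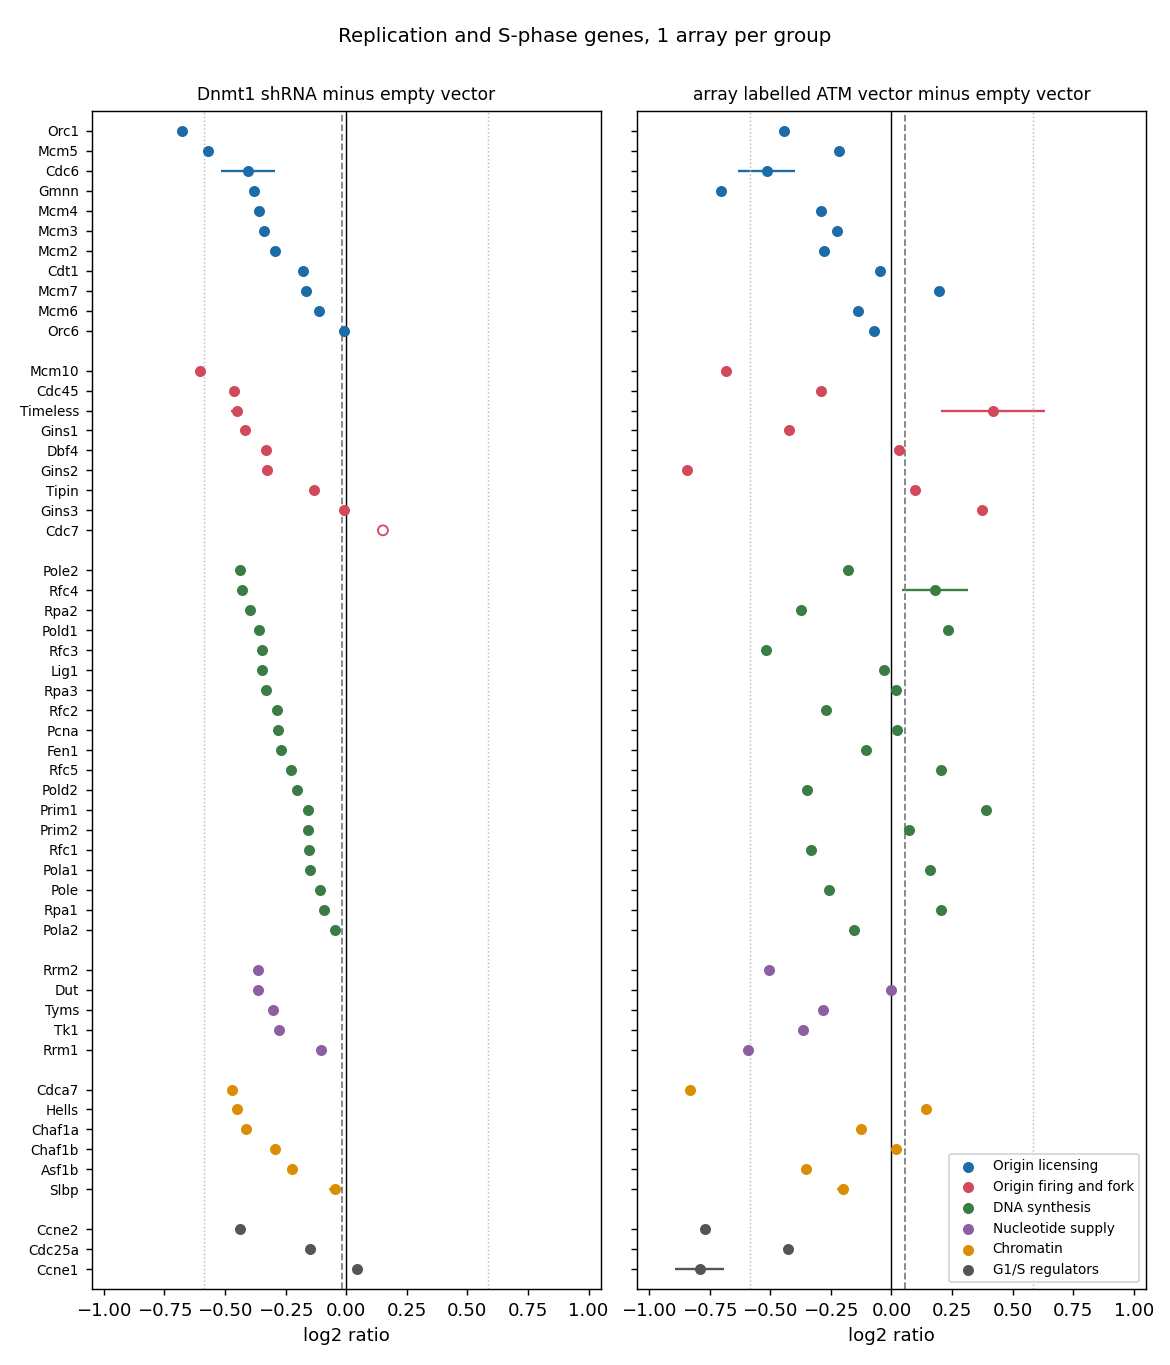
Log2 ratio (horizontal axis) of each of the 53 members (rows, grouped by role and coloured), for the Dnmt1 shRNA array (left) and the array labelled ATM vector (right), each minus the empty-vector array. A point is the mean over a gene's counted probes, a horizontal line spans its probes where it has 2, the open circle is Cdc7 (well above background on 1 of the 2 arrays), the dashed line is the median of all genes tested and dotted lines mark 1.5-fold; the left panel runs from -0.68 (Orc1) to 0.05 (Ccne1) among members measured on both arrays and the right panel from -0.84 (Gins2) to 0.42 (Timeless).

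The promoters of the members were examined for sites of E2F factors. Neither the choice of members nor the array values used promoter sequences. Many of the genes are however known to be transcribed by E2F factors, as said above, so a larger share of sites was likely from the choice by name. Windows of 300 bases, from 250 before to 50 after the RefSeq start on GRCm38.p6, were on hand for 44 members (50 windows) and were searched on both strands for the E2F core TTTNNCGC and for its stricter forms TTTGGCGC and TTTCCCGC, both of which are also matches to the core. The core was present in 34% of member windows, against 6.24% of 21263 windows of protein-coding genes and 5.17% of all 32851 windows. Either stricter form was present in 28% of member windows, against 2.02% and 1.56%. Matches were unevenly spread over the roles: 7 of 9 licensing genes held the core, against 5 of 16 synthesis genes, 2 of 6 chromatin genes, 1 of 6 firing and fork genes, 1 of 5 nucleotide genes and 1 of 2 regulators of S-phase entry. Rfc2, Gins2, Gmnn, Pole, Ccne2, Tipin, Prim2, Gins1 and Mcm4 were not in the table.

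The windows below show the licensing genes with a stricter form upstream of the start, where the sites were most common, and, for each other role that has one upstream, the gene with the lowest ratio with the hairpin. Capitals mark TTTGGCGC or TTTCCCGC or their complements GCGCCAAA and GCGGGAAA; each run of 80 bases is from RefSeq, read along the strand of the gene.
Mcm5, chr8:75109324-75109403, + strand: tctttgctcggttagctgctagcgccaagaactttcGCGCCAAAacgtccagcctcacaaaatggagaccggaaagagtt
Cdc6, chr11:98907977-98908056, + strand: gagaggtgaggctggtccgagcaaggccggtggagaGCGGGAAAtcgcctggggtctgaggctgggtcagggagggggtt
Mcm7, chr5:138172005-138172084, - strand: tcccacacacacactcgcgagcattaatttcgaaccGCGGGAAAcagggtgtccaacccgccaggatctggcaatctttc
Mcm6, chr1:128359741-128359820, - strand: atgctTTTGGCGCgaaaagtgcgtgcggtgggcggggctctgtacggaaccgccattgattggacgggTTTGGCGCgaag
Gins3, chr8:95633479-95633558, + strand: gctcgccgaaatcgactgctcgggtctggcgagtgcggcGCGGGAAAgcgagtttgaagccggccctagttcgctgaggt
Pola1, chrX:93632250-93632329, - strand: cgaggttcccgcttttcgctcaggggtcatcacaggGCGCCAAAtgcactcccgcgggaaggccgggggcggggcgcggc
Cdca7, chr2:72476112-72476191, + strand: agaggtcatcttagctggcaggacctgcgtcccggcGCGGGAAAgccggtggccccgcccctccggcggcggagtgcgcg
Cdc25a, chr9:109875476-109875555, + strand: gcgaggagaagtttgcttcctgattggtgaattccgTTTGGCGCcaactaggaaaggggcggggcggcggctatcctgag

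Members with and without a site overlapped in their ratios. With the hairpin, the 17 members with an E2F core had a median log2 ratio of -0.35 (from -0.68 to -0.01) and the 27 members without one a median of -0.28 (from -0.60 to 0.05 among those measured on both arrays). On the array labelled ATM vector the medians were -0.18 over 17 genes and -0.14 over 26. Among the sequences above, Mcm5 stood at -0.57 with the hairpin and Gins3 at -0.01. A match is a description of the sequence, and whether E2F factors bind there was not measured.

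Other promoter elements were counted in the same windows and in those of a mitosis list. The CHR element TTTGAA, found in promoters of genes that peak in mitosis, was present in 18% of member windows, against 74.1% of the 27 windows of the mitosis list and 16.0% of those of protein-coding genes. CCAAT was present in 52% of member windows, 77.8% of mitosis windows and 38.2% of protein-coding windows. For the GC box GGGCGG, which can share bases with a neighbouring GCGGGAAA, the shares were 76%, 81.5% and 46.2% in the same order. The mitosis windows held the E2F core in 7.41%, and neither stricter form in any of the 27.

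**Figure D3:**
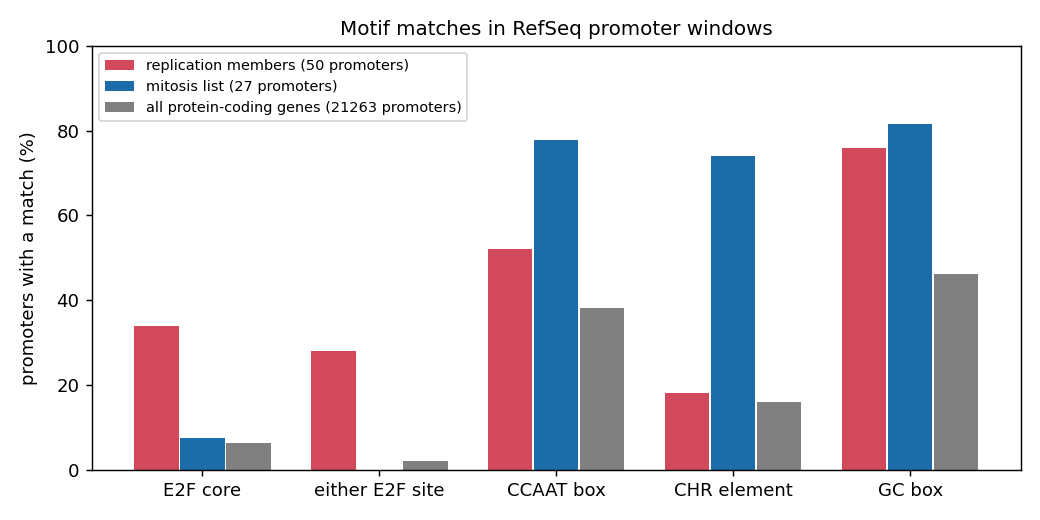
Share of RefSeq promoter windows of 300 bases (vertical axis, percent) with at least 1 match on either strand to each motif (horizontal axis), for the replication members (red, 50 windows), the mitosis list (blue, 27) and all protein-coding genes (grey, 21263). The E2F core reaches 34% in members and 6.24% in protein-coding genes, while the CHR element reaches 74.1% in the mitosis list and 18% in members.

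On the array labelled ATM vector, set against the same empty-vector array as above, the role groups had unlike medians. Genes of S-phase entry and nucleotide supply were lower, and DNA synthesis genes scattered around 0. The log2 ratio was below 0 for 36 of 52 members, against 46.0% of 18463 genes tested, with a median of -0.21 against 0.05 for all genes. None was 2-fold lower or higher, while 7.96% of all genes were at least 2-fold lower and 8.45% at least 2-fold higher. At least 1.5-fold lower were 7 members, 13.5% against 14.4% of all genes tested, dim ones included. All 52 members were measured on both arrays, and of the genes so measured 10.9% were at least 1.5-fold lower. The members' share was thus under that of all genes tested but over that of genes measured on both arrays. At least 1.5-fold higher were 0 members, against 17.2% of all genes and 14.4% of those measured on both arrays. A ratio below minus the probe SD of 0.33 was found for 17 members, against 24.3% of all genes, and above it for 3, against 29.9%. Of 7655 bright genes, chosen as above, 44.7% were below 0 with a median of 0.06, and of the 46 members among them 30 were below 0 with a median of -0.16. Scaled on the median level of the housekeeping genes, all 52 members were below 0 and so were 87.1% of all genes. That level was that of a single gene, B2m, with a log2 ratio of 0.73, against a median of 0.43 over the list. No value above 0 given below for a member kept its sign under that scaling. Pcna, Rpa3, Chaf1b, Dbf4, Hells and Dut also changed sign under at least 1 other alternative.

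The 3 regulators of S-phase entry had the lowest median here, -0.77, and all 3 lay below minus the probe SD. Ccne1 held 57.8% of the empty-vector level, with log2 ratios of -0.89 and -0.69 by its 2 probes. Ccne2 stood at -0.77 (-0.30 after normexp) and Cdc25a at -0.43. For Ccne1 the array labelled ATM vector was the only low one, since the Dnmt1 shRNA and empty-vector levels given above differed by 0.05.

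Nucleotide supply genes had a median of -0.37, with 5 of 5 below 0. Both subunits of ribonucleotide reductase were lower, Rrm1 at -0.59 and Rrm2 at -0.50, where the hairpin gave -0.10 for Rrm1 and -0.36 for Rrm2. Tk1 stood at -0.37, Tyms at -0.28 and Dut at -0.0023.

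Licensing genes had a median of -0.22, with 10 of 11 below 0. Gmnn stood lowest at -0.70 (61.4% of the empty-vector level), followed by Cdc6 at -0.51 (probes -0.63 and -0.40) and Orc1 at -0.44. Of the MCM subunits, Mcm4, Mcm2, Mcm3, Mcm5 and Mcm6 lay between -0.29 and -0.14, within the probe SD. Mcm7, with levels of 4.09 on the Dnmt1 shRNA array, 4.46 on the array labelled ATM vector and 4.26 on the empty-vector array, was the 1 licensing gene above 0, at 0.20, and that value too is within the probe SD. Cdt1 and Orc6 stood at -0.05 and -0.07.

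Firing and fork genes had a median of -0.13, with 4 of 8 below 0, and held both extremes of the set. Gins2 had the lowest ratio of all members, with levels of 1.76 on the Dnmt1 shRNA array, 1.24 on the array labelled ATM vector and 2.09 on the empty-vector array, 55.7% of the empty-vector level (log2 ratio -0.84). Another subunit of the same complex, Gins3, was at 0.37, and Gins1 was at -0.42. Within GINS the ratios thus spanned 1.22, against 0.41 with the hairpin. Mcm10 stood at -0.68 and Cdc45 at -0.29. Timeless, with levels of 0.67 on the Dnmt1 shRNA array, 1.54 on the array labelled ATM vector and 1.12 on the empty-vector array, had the highest ratio of all members at 0.42, but its 2 probes gave 0.63 and 0.21; its partner Tipin stood at 0.10 and Dbf4 at 0.03.

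DNA synthesis genes had a median of -0.03, and 10 of 19 were below 0. The lowest was Rfc3, with levels of 0.59 on the Dnmt1 shRNA array, 0.42 on the array labelled ATM vector and 0.93 on the empty-vector array (log2 ratio -0.52). Next was Rpa2, with levels of 0.14, 0.17 and 0.54 (log2 ratio -0.37). The highest was Prim1, the catalytic primase subunit, with levels of 3.27, 3.82 and 3.43 in the same order (log2 ratio 0.39). Pold1, the catalytic subunit of polymerase delta, had levels of 2.15, 2.74 and 2.51 (log2 ratio 0.23). For Prim1 and Pold1 the array labelled ATM vector was the highest of the 3 and the Dnmt1 shRNA array the lowest. Subunits of 1 machine lay on both sides of 0: RFC ran from Rfc3 at -0.52 to Rfc5 at 0.21, RPA from Rpa2 at -0.37 to Rpa1 at 0.20 and polymerase delta from Pold2 at -0.35 to Pold1 at 0.23. Pcna, the clamp, stood at 0.02, where the hairpin gave -0.28, and Lig1 and Fen1 stood at -0.03 and -0.10.

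Chromatin genes had a median of -0.16, with 4 of 6 below 0. Hells and Cdca7, which had nearly equal ratios with the hairpin under the reported processing, stood far apart here. Cdca7 was at -0.83 (56.2% of the empty-vector level) and Hells at 0.14, a range of 0.97. Asf1b stood at -0.35, Slbp at -0.20, Chaf1a at -0.12 and Chaf1b at 0.02.

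Medians by role kept their sign under the alternatives tried with the hairpin. For the array labelled ATM vector the firing and fork median was 0.03 without a filter on dim probes, which adds Cdc7 on signals near background. The synthesis median stayed below 0. It was within 0.15 of 0 under every alternative other than scaling on housekeeping genes, in effect on B2m.

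**Figure D4:**
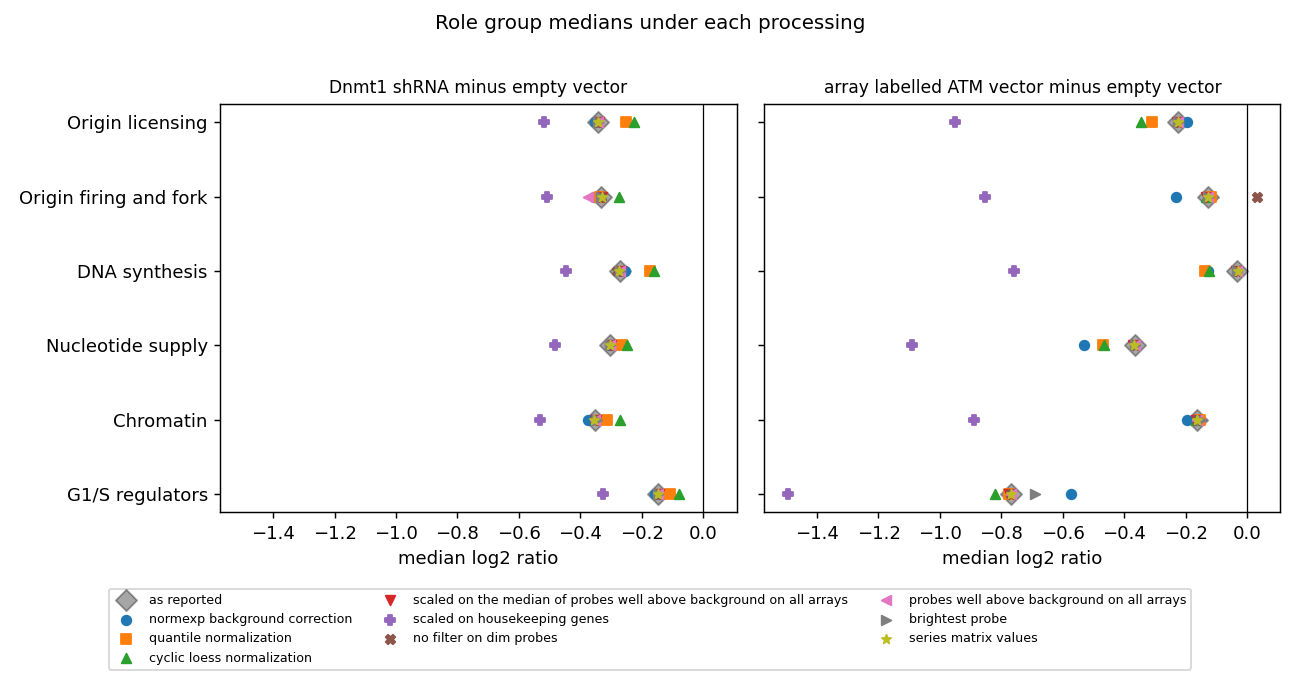
Median log2 ratio (horizontal axis) of each role group (rows) under the reported processing (large grey diamond) and 9 alternatives (small symbols), for the Dnmt1 shRNA array (left) and the array labelled ATM vector (right), each minus the empty-vector array. The left panel stays below 0 throughout, and at right scaling on housekeeping genes (in effect on B2m) lies apart from the rest, from -1.5 to -0.76.

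Other genes of the same pathway, listed by name, had a median log2 ratio of -0.21 with the hairpin, with 72 of 90 below 0, against 52.0% of all genes and 66.4% of bright genes. The other firing and fork genes were below 0 in 10 of 10 and had a median of -0.24, led by the helicase Recql4 at -0.52 and the polymerase alpha adaptor Wdhd1 at -0.39. Among the other synthesis genes (median -0.25, 12 of 17 below 0), Chtf18, a subunit of an alternative clamp loader, stood at -0.69 and Pclaf, a clamp-binding protein, at -0.66. The other licensing genes had a median of -0.13, with 5 of 7 below 0; Mcm9 stood at 0.24 and Mcm8 at -0.23. The other nucleotide genes had a median of -0.24, with 19 of 23 below 0; Ppat, the first enzyme of purine synthesis, stood at -0.50 but its probes gave -0.80 and -0.20, and Umps, of pyrimidine synthesis, stood at -0.41. The other chromatin genes, which include Dnmt1 at -2.19, had a median of -0.22, with 13 of 15 below 0, and the histone acetyltransferase Hat1 stood at -0.52. The other G1/S genes had a median of -0.13, with 13 of 18 below 0; the D-type cyclin Ccnd2 stood at 0.77 and E2f4 at -0.42. In all, 3 of 90 were at least 1.5-fold lower (3.33%) and 1 was at least 1.5-fold higher (1.11%), against 4.74% and 13.1% of all genes. The 3 lower genes include Dnmt1, the target of the hairpin.

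On the array labelled ATM vector the same 90 genes had a median of -0.11, with 47 below 0, 11 at least 1.5-fold lower and 7 at least 1.5-fold higher, against 14.4% lower, 17.2% higher and 46.0% below 0 over all genes. The shares of the 90 past 1.5-fold were 12.2% lower and 7.78% higher. All 90 were measured on both arrays. Of the 16628 genes so measured, 10.9% were at least 1.5-fold lower and 14.4% at least 1.5-fold higher. The lower share was thus under that of all genes tested but over that of genes measured on both arrays. Pole4, a small polymerase epsilon subunit, stood at -1.57, whereas Pole and Pole2 stood at -0.26 and -0.18. Mthfd2 and Shmt2, mitochondrial enzymes of one-carbon metabolism, stood at 1.46 and 1.09, in a list of nucleotide genes whose median was -0.15. Ccnd2 stood at -1.39 and the E2F gene E2f2 at 0.91 in the G1/S list (median 0.03), and the histone chaperone Asf1a stood at 1.04 in the chromatin list (median -0.16), where Asf1b was at -0.35. Rif1, a regulator of replication timing, stood at -0.70 and Gins4 at -0.59 in the firing and fork list (median -0.07). Hat1, of the same chromatin list, stood at -0.74. The other licensing genes had a median of -0.22, with Mcm9 at 0.60 and the origin recognition subunit Orc2 at 0.45. The other synthesis genes had a median of -0.05, with Rnaseh2c, a subunit of the enzyme that removes RNA from DNA, at 0.70.

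Genes of mitosis had medians close to those of the members. The 32 genes of a mitosis list had a median log2 ratio of -0.25 with the hairpin, with 31 below 0, against 52.0% of all genes and 66.4% of bright genes. On the array labelled ATM vector their median was -0.26, with 26 below 0, against 46.0% of all genes and 44.7% of bright genes. Housekeeping genes had medians of -0.07 with the hairpin and 0.43 on the array labelled ATM vector, over 19 genes.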

How the data were processed

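RNA of 3 cultures was measured on 3 Agilent 1-colour (Cy3) arrays. The authors deposited scanner output; the submitters' processing notes name Agilent Feature Extraction 10.7.3.1. Its processed signal is a spot intensity, background-subtracted and spatially detrended within each array, per the file headers, with no scaling between arrays recorded. Also used from the deposited files were the median spot and background intensity (in 1 alternative) and flags of 0 or 1 per spot. The deposited series matrix holds the same intensity values, each within 0.495% of the scanner value.

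Control spots and outlier spots (235, 167 and 228 on the Dnmt1 shRNA, ATM vector and empty-vector arrays) were removed; no spot was saturated. Spots were averaged per probe on the log2 scale (39404 probes kept), and each array's 75th percentile was taken off. Ratios average those probes of a gene that either array of the pair shows well above background. Probes were named by unversioned RefSeq accession (26397 matched 1 symbol, 0 several and 13007 none; the last keep their accession) through a RefSeq table of GRCm38.p6; the array design was placed on mm9, so only promoter windows have coordinates. Members, lists and named genes (per role and comparison the 2 highest and 2 lowest ratios, all in groups of 6 or fewer, dim members, members whose probes differ in sign, and up to 2 leading genes per pathway list) were chosen with earlier results of these data known. Values were computed with Python 3.11.15 and limma 3.58.1 and the ratio step was tested on simulated data. The number of arrays limits the precision.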

Additional observations from a re-analysis of the deposited data

How the results depend on the processing

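With 1 array per group, replicates could not be left out. No paired analysis was possible because each group has 1 array. Of 9 alternatives, normexp used the median spot signal because that is the column on hand. Values that moved by less than the probe SD (0.21 and 0.33) count as unmoved; this held for 472 of 476 single-member values with the hairpin and 415 of 468 on the array labelled ATM vector, and none of at least 1.5-fold changed sign. The members' median ranged from -0.47 to -0.21 with the hairpin and, relative to the median of all genes, from -0.30 to -0.17; on the array labelled ATM vector this distance ranged from -0.29 to -0.24. Scaling on housekeeping genes took off the median level of the list, which on every array was the level of a single gene, B2m. B2m had log2 ratios of 0.18 with the hairpin and 0.73 on the array labelled ATM vector, against medians of -0.07 and 0.43 over the list. Values under that scaling, the -0.47 above included, thus follow B2m and not the list as a whole. That scaling moved the median of all genes to -0.19 with the hairpin and -0.67 on the array labelled ATM vector. Under it 12 members were at least 1.5-fold lower with the hairpin (1 after cyclic loess, against 2 as reported). On the array labelled ATM vector it gave a members' median of -0.94, with 42 at least 1.5-fold and 22 at least 2-fold lower, against 7 and 0 as reported, and role medians of -0.95 (licensing), -0.85 (firing and fork), -0.76 (synthesis), -1.09 (nucleotide), -0.89 (chromatin) and -1.5 (S-phase entry). That scaling shifts every gene of an array by the same amount. On the array labelled ATM vector the median of all genes, -0.67, was itself past 1.5-fold lower, so most genes passed that threshold there. Shares of all genes past 1.5-fold or 2-fold were not counted under that scaling. The member counts under it therefore do not set the members apart from other genes. Signals near background limit Cdc7 and Ccne2.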
